A study of Mus musculus with 2 samples.

Results

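Distal intronic open sites of mouse erythroblasts are stretches of accessible DNA that lie inside a gene body, outside every annotated exon and more than 1 kb from every annotated transcription start site. Such a site was counted when it was called open in replicate 1 and overlapped, by 1 bp or more, an interval called open in replicate 2. The place of a site was that of its strongest summit, the point of highest enrichment within it, against the GENCODE M21 annotation. By this rule 3408 sites were found among 16180 open sites shared by both replicates on chromosomes 1 to 19 and X, a share of 21.1%. The other shared sites were 9711 promoter sites, with a summit within 1 kb of a start site, 2579 intergenic sites and 482 exon sites.

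The data came from ATAC-seq, in which a transposase cuts and tags accessible DNA, so that open sites collect more sequenced fragments than closed chromatin. The cells were primary erythroblasts, which are red cell precursors that still have a nucleus, from adult male C57BL/6J mice 5 to 6 weeks old, with 50000 cells per library. The series held 1 untreated group with 2 biological replicates and no second condition, and the thresholded peak lists held 17766 intervals in replicate 1 and 18826 in replicate 2. The labels give both replicates the same donor identifier, so the spread between them may be technical in part, and those of replicate 2 name 2 sequencing instruments where those of replicate 1 name none. Read numbers are not part of the lists, so library depth is unknown, and every comparison of regions below is a description with no test.

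Introns are a common home of enhancers, DNA elements that bind transcription factors and raise the transcription of genes on the same chromosome, either the host gene or a neighbour. In red cell precursors the zinc finger factor GATA1 binds GATA letters together with TAL1 and LDB1, often beside an E-box, the letters bound by TAL1 and its partners. KLF1 binds CACCC letters, NFE2 binds a longer form of the AP-1 letters, and CTCF, found in all cell types, marks sites of chromatin loop anchors.

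The sequences below show what such sites look like at genes known for blood enhancers or at the most enriched site with a GATA motif in a list of erythroid genes. Each run is the replicate 1 summit with 75 bases to each side, here called the summit window, read on the + strand of the mm10 reference (RefSeq GRCm38.p6). Capitals mark each GATA motif, which has 4 spellings on either strand: AGATAA is the first, AGATAG is the next, then comes TGATAA, and TGATAG is the last. A match is a description of letters and not evidence of a bound factor.
Alas2 (chrX:150564771-150564921, + strand): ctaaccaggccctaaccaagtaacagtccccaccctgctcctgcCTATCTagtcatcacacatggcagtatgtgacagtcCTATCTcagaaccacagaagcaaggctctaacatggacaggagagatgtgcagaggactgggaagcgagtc
Nprl3 (chr11:32245705-32245855, + strand): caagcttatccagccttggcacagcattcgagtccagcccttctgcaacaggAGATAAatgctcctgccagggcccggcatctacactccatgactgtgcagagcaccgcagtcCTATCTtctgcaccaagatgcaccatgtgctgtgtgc
Gata1 (chrX:7971434-7971584, + strand): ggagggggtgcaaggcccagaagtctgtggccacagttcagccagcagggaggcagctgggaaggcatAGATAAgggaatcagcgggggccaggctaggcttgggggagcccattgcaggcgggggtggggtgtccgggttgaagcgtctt
Runx1 (chr16:92801626-92801776, + strand): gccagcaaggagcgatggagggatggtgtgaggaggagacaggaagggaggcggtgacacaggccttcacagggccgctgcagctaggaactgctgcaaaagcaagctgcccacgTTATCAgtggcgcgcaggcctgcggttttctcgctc
Zfpm1 (chr8:122294267-122294417, + strand): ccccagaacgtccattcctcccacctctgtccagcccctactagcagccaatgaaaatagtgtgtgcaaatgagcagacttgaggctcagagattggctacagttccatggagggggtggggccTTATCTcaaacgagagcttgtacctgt
Sox6 (chr7:115941886-115942036, + strand): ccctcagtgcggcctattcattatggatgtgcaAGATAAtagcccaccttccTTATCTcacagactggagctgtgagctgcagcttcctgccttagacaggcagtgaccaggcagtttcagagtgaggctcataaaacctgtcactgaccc
Ank1 (chr8:23054100-23054250, + strand): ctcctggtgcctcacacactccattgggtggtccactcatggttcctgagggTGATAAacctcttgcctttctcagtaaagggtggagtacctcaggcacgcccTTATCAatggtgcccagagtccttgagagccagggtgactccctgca
Epb41 (chr4:132060171-132060321, + strand): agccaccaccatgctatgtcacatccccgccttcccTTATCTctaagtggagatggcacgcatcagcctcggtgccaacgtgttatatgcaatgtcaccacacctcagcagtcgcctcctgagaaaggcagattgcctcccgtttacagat
Xk (chrX:9298680-9298830, + strand): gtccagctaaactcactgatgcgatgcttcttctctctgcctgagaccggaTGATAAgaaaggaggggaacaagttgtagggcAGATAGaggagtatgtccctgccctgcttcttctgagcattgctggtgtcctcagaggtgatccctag
Slc25a37 (chr14:69276378-69276528, + strand): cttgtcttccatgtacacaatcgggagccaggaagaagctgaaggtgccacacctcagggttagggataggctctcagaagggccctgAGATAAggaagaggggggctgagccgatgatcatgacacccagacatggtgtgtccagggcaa
Xpo7 (chr14:70713088-70713238, + strand): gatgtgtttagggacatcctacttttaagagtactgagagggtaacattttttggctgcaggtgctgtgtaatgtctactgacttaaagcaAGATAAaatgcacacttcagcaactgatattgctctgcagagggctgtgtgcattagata
Bpgm (chr6:34486413-34486563, + strand): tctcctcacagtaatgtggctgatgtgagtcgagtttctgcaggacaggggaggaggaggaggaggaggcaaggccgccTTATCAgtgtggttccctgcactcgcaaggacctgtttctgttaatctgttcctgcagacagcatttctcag

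All 12 windows were chosen to hold a GATA motif, and 5 of them held 2. In 9 of the 12 a GATA motif lay within 25 bp of the summit, and in the others the closest one was up to 52 bp away. In 5 windows, those of Alas2, Nprl3, Runx1, Ank1 and Xk, the letters CTG stood 7 or 8 bases before a GATA motif on the same strand, which is the spacing of the composite element bound by TAL1 and GATA1. The replicate 2 summit lay at most 26 bp from the replicate 1 summit in each of these windows.

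Distal intronic sites were close in width to intergenic sites and narrower than promoter sites. Their median width was 499 bp in replicate 1 and 510 bp in replicate 2, against 524 and 533 bp for intergenic sites and 816 and 815 bp for promoter sites. A single summit was listed for 54.7% of them in replicate 1 and 53.6% in replicate 2, against 51.7% and 49.5% of intergenic sites, 53.9% and 55.6% of exon sites and 27.4% and 27.7% of promoter sites. Strongest summits of the replicates lay a median of 6 bp apart, and 3337 of the 3408 pairs, 97.9%, lay within 50 bp. The replicate 2 summit was itself distal and intronic for 3395 sites, 99.6%.

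Enrichment, the authors' fold over background at the summit, was moderate. Its median over distal intronic sites was 7.0 in replicate 1 and 7.12 in replicate 2, against 7.38 and 7.55 for intergenic sites and 9.09 and 9.28 for promoter sites. Values ran between 1.88 and 24.9 in replicate 1 and between 2.62 and 23.5 in replicate 2. Distal intronic sites thus stood below the middle of each list, at a median percentile of 39.1 in replicate 1 and 41.8 in replicate 2. Across the 3408 sites the enrichment of the replicates correlated with Spearman's rho 0.931, a description over sites of the same 2 libraries. Enrichment differed by over 2 times at 5 sites, all higher in replicate 2, in introns of Gm16675, Ppil4, Gramd1b, Homer1 and Ptprh. At these 5 the summits of the replicates lay 251 to 387 bp apart, so each pair of values belongs to different points of the site.

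**Figure D1:**
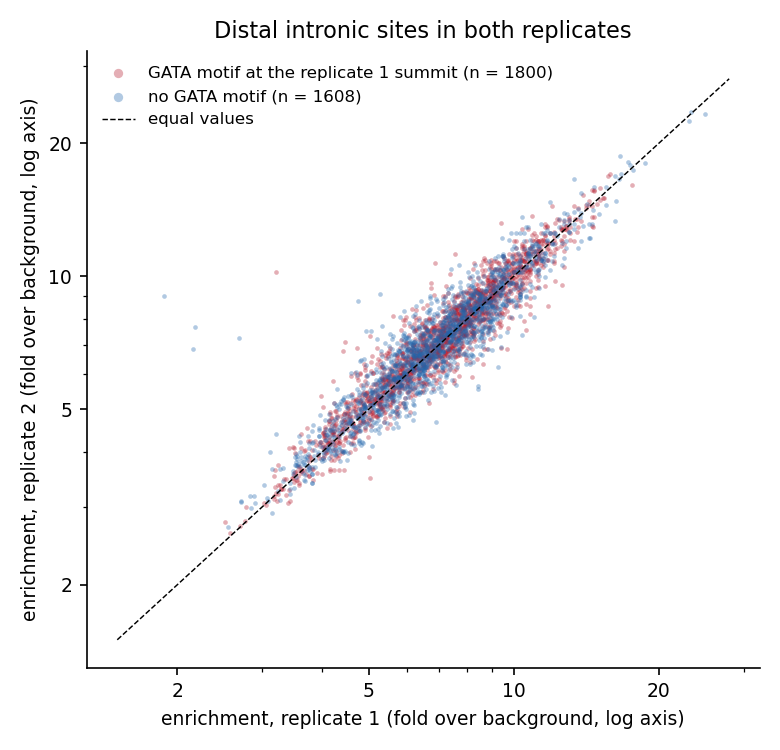
Enrichment of each of the 3408 distal intronic sites in replicate 1 (horizontal) and replicate 2 (vertical), both as fold over background on log axes, colored by whether a GATA motif lies in the replicate 1 summit window; the dashed line marks equal values. Sites with a motif (1800) and without one (1608) overlap along the line, and 5 sites with low replicate 1 values stand above it.

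Distal intronic openings recurred between replicates about as often as other openings away from promoters, and less completely than promoters did. Of the distal intronic intervals in the replicate 1 list, 3408 of 3974 overlapped a replicate 2 interval (85.8%, 95% Wilson interval 84.6 to 86.8), and of those in the replicate 2 list, 3415 of 4391 overlapped a replicate 1 interval (77.8%, 76.5 to 79.0). The shares were 85.4% and 78.7% for intergenic, 84.6% and 80.5% for exon and 95.2% and 92.6% for promoter intervals of replicates 1 and 2. Against the other replicate's less strict list, which is longer, 98.8% of distal intronic intervals of replicate 1 and 97.7% of those of replicate 2 had an overlap. All 3408 sites overlapped the thresholded list that the authors made from both replicates, and 3406 overlapped its conservative form. Those lists come from the same 2 libraries, so this overlap was largely set by the rule of membership. Intergenic sites overlapped the 2 forms in 2579 and 2576 of 2579 cases, and promoter sites in 9706 and 9710 of 9711. Wilson intervals here and below cover counting error only.

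Distal intronic sites gathered near start sites although promoters were left out by definition. Their median distance to the nearest start site was 6.10 kb, with quartiles of 2.73 and 13.5 kb. The zone 1 to 2 kb from a start site held 550 sites, 16.1% (14.9 to 17.4), against 6.99% of the intron sequence that could hold a site by the rule, a ratio of 2.31. Between 10 and 20 kb the share of sites was 19.7% (18.4 to 21.1) and that of sequence 20%. Beyond 100 kb lay 15 sites, 0.440% (0.267 to 0.725), against 5.91% of sequence. Each farther zone thus held fewer sites relative to its sequence than the zone before it. Enrichment did not follow that order, with medians of 5.89 in replicate 1 and 6.11 in replicate 2 at 1 to 2 kb, and 7.63 and 7.69 at 10 to 20 kb.

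**Figure D2:**
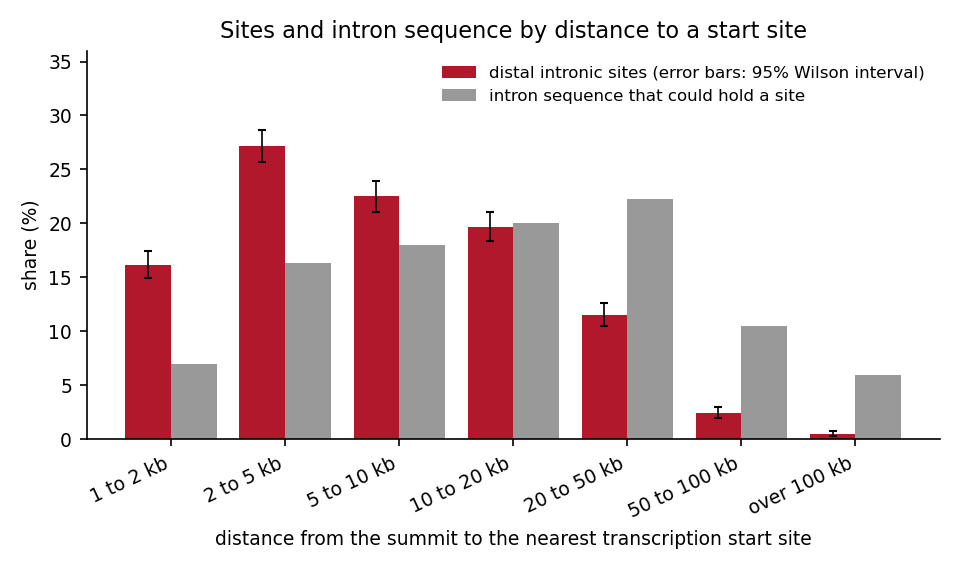
Share of the 3408 distal intronic sites (red, with 95% Wilson intervals) and share of the intron sequence that could hold one (grey), in percent, by distance to the nearest transcription start site. Sites exceed sequence below 10 kb and fall short of it above 20 kb; at 1 to 2 kb they are 16.1% against 6.99%.

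The rule places a boundary at 1 kb, so sites on each side of it were set side by side. Just outside the rule, 517 shared sites in gene bodies but not in exons had a summit 500 to 1000 bp from a start site, with median enrichments of 6.20 and 6.39 in replicates 1 and 2 and a GATA motif, described below, in 39.1% (35 to 43.3). Just inside it, 320 sites at over 1000 and up to 1500 bp had medians of 5.97 and 6.19 and a GATA motif in 45.9% (40.6 to 51.4).

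First introns, which often carry regulatory elements, held a larger share of sites than of eligible sequence. Intron 1 of the host gene's chosen transcript held 1138 sites, 33.4% (31.8 to 35), against 25.8% of the eligible sequence. Introns 2 and 3 held 15.9% and 9.74% of sites, against 16.2% and 10.2% of sequence, and introns from the fourth on held 32.9% against 39.8%. Since first introns also lie close to start sites, the shares were set side by side within distance zones. At 1 to 2 kb, 46.7% of sites (42.6 to 50.9) and 36.4% of sequence lay in first introns. The values were 35.3% (32.3 to 38.4) and 32.3% at 2 to 5 kb, 32.5% (29.2 to 35.9) and 28.8% at 5 to 10 kb, and 29.9% (26.5 to 33.4) and 25.9% at 10 to 20 kb, so at 2 to 5 kb the lower bound of the sites met the sequence share. At 20 to 50 kb, 23.9% of sites (20 to 28.4) lay in first introns and 22.6% of sequence did, so there the interval of the sites covered the sequence share. Farther out the order turned round: first introns held 12% of sites (6.68 to 20.8) and 18% of sequence at 50 to 100 kb, and 0 of 15 sites (0 to 20.4%) and 10.8% of sequence beyond 100 kb, with both intervals covering the sequence share.

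GATA was the most frequent of the 17 letter patterns searched in distal intronic sites. A GATA motif lay in the summit windows of 52.8% of sites by the replicate 1 summit and 52.6% by the replicate 2 summit, which is 52.7% ± 0.145 (mean and SD, n = 2 replicates). Both windows belong to the same sites, with summits a median of 6 bp apart. The SDs of motif shares over all sites thus reflect the placement of summits alone. Over all distal intronic intervals of each replicate's own list, the GATA share was 50.5% in replicate 1 and 49.0% in replicate 2. Windows 1000 bp to each side that overlapped no open interval held one in 23.1% of 6305 cases, and windows on a regular grid over eligible intron sequence in 29.0% of 50168. Intergenic sites reached 43.9% ± 0.0274 (SD, n = 2) and promoter sites 12.9%. The 4 spellings, set apart after the values of the motif had been seen, were unequal: AGATAA lay in 28.4% ± 0.124 of distal intronic sites and 7.79% of flanks, and TGATAA in 19.5% ± 0.104 and 6.17% (SD, n = 2). By contrast, AGATAG lay in 11.5% of sites and 7.33% of flanks, and TGATAG in 8.29% and 4.87%. The spellings written backwards without complementing, such as AATAGA for the first, have the base composition of the motif and were found in 15.2% ± 0.104 of sites (SD, n = 2) and 19.6% of flanks.

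Summit windows differed from the flanks in composition as well. Their median GC content was 52.3%, against 46.4% in flanks and 42.4% on the grid, and the summit base lay in a masked repeat in 10% of sites against 26.2% of flanks. The part of base composition in the motif shares was not tested beyond the reversed letters.

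GATA motifs peaked at the summit itself. Within 40 bp of it they numbered 6.36 per kb in replicate 1 and 6.33 per kb in replicate 2, against 1.88 and 1.86 per kb at 400 to 500 bp. The reversed letters numbered 1.14 and 1.17 per kb at the centre, against 1.5 and 1.51 per kb at 400 to 500 bp, and showed no peak. Of 1148 sites with a single GATA motif, 567 held it on the strand of the host gene, 49.4% (46.5 to 52.3), an interval that covers equal shares of both strands. There were 2 motifs in 562 sites (16.5%) and 3 or more in 90 (2.64%), against 3.12% and 0.603% of flanks.

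The composite of E-box and GATA letters stood further above its background. CTG followed after 7 or 8 bases by a GATA motif lay in 17.1% of distal intronic sites in each replicate, against 1.09% of flanks, 12.3% of intergenic sites and 2.29% of promoter sites. The share differed between neighbouring spacers, which were listed after the composite's values had been seen. A spacer of 8 bases was found in 11.9% of sites in replicate 1 and 11.8% in replicate 2, against 0.571% of flanks, and a spacer of 7 in 5.63% and 5.72%, against 0.523%. The 17 other spacers between 2 and 20 bases ranged between 1.36% and 4.25% of sites, with the highest at 9 bases and the lowest at 10. Every spacer exceeded its flank share, by 2.65 times or more.

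**Figure D3:**
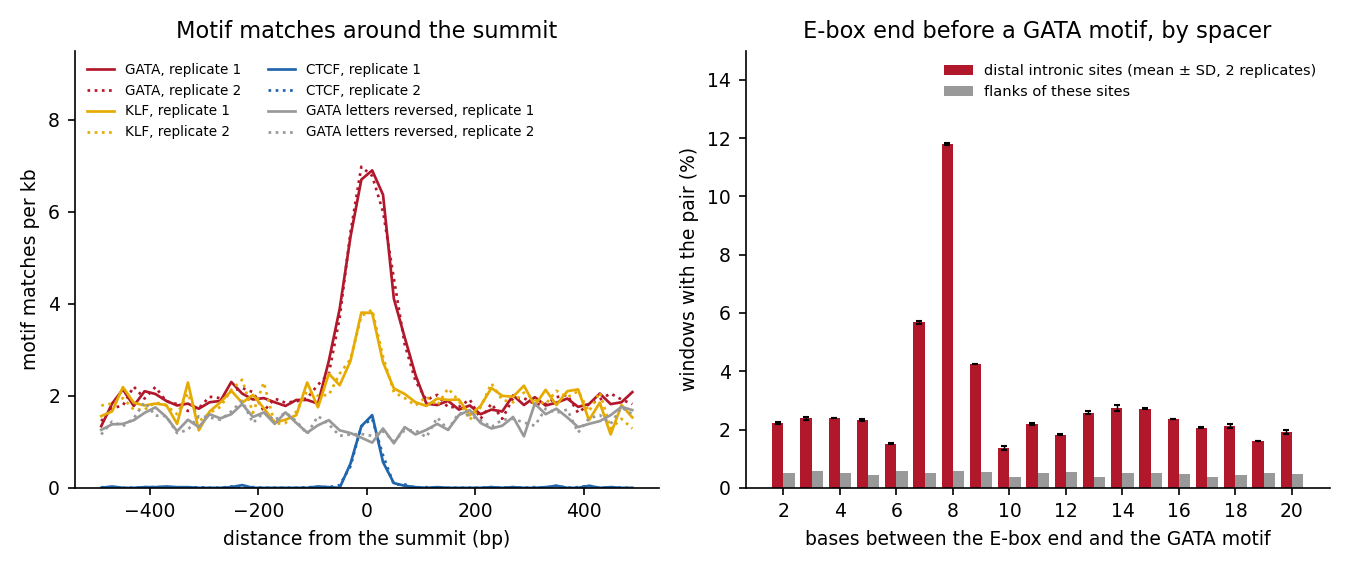
Left, matches of 4 letter patterns per kb in 20 bp bins up to 500 bp from the summit of the 3408 distal intronic sites, with solid lines for replicate 1 and dotted lines for replicate 2. Right, share of sites (red, mean ± SD of 2 replicates) and of flank windows (grey) in percent with CTG before a GATA motif, by the number of bases between them; the spacer of 8 bases stands out at 11.8% against 0.571%.

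Other factors' letters lay both in sites with GATA and in sites without, with NFE2 and AP-1 letters less frequent in those with GATA. A KLF pattern, CCNCNCCC, lay in 27.9% ± 0.145 of distal intronic sites (SD, n = 2) and 12.5% of flanks, and in 26.6% of sites with GATA and 29.2% of sites without. Intergenic sites held it in 27.3%, and promoter sites, which are richer in G and C, in 53.4%. The NFE2 letters GCTGAGTCA, which contain the AP-1 letters TGANTCA, lay in 4.12% ± 0.0622 of sites (SD, n = 2) and 0.285% of flanks. They lay in 3.26% of intergenic sites and 0.566% of promoter sites. AP-1 letters as a whole lay in 10.2% of sites, 4.27% of flanks and 9.64% of intergenic sites. NFE2 letters were found in 2.50% (1.87 to 3.33) of sites with GATA and 5.85% (4.8 to 7.10) of sites without, and AP-1 letters in 7.39% and 13.2%. RUNX letters, TGTGGT, lay in 15.3% of sites and 12.8% of flanks, and ETS letters, GGAAGT, in 9.46% and 7.72%, so these 2 patterns stood 1.20 and 1.23 times above the flanks. NFY letters, CCAAT, lay in 16% of sites and 17.3% of flanks. Of the E-boxes, CAGCTG lay in 15.2% of sites and 7.88% of flanks, and CAGATG in 16.1% and 11.6%. MEIS letters, TGACAG, lay in 14.3% and 10.3%. The remaining patterns were rare in distal intronic sites: FOX letters, TGTTTAC, lay in 2.36% against 1.92% of flanks, STAT letters, TTCNNNGAA, in 2.99% against 4.27%, the GC box GGGGCGGGG, which contains the KLF pattern, in 1.34% against 0.571%, and CRE letters, TGACGTCA, in 0.352% against 0.0634%.

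CTCF letters marked a smaller and nearly separate set. Its consensus lay in 8.25% ± 0.0415 of distal intronic sites (SD, n = 2), against 0.0476% of flanks, 12.3% of intergenic sites and 1.78% of promoter sites. It was found in 35 of 1800 sites with GATA, 1.94% (1.40 to 2.69), and in 245 of 1608 without, 15.2% (13.6 to 17.1). Sites with CTCF and no GATA had a median width of 435 bp, against 568 bp for the 1765 sites with GATA and no CTCF. First introns held 19.6% (15.1 to 25) of those CTCF sites and 34.9% (32.7 to 37.2) of those GATA sites. Erythroid list genes, defined below, hosted 2 of the 245, 0.816% (0.224 to 2.93), and 112 of the 1765, 6.35% (5.30 to 7.58). They hosted 4.90% (4.22 to 5.68) of all 3408 sites and 3.82% (2.92 to 4.97) of sites with neither pattern. The remaining 1363 sites, close to 40% of all, held neither pattern. Their median width of 443 bp was near that of the CTCF sites. Their first intron share of 34.6% (32.1 to 37.1) was near that of the GATA sites.

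**Figure D4:**
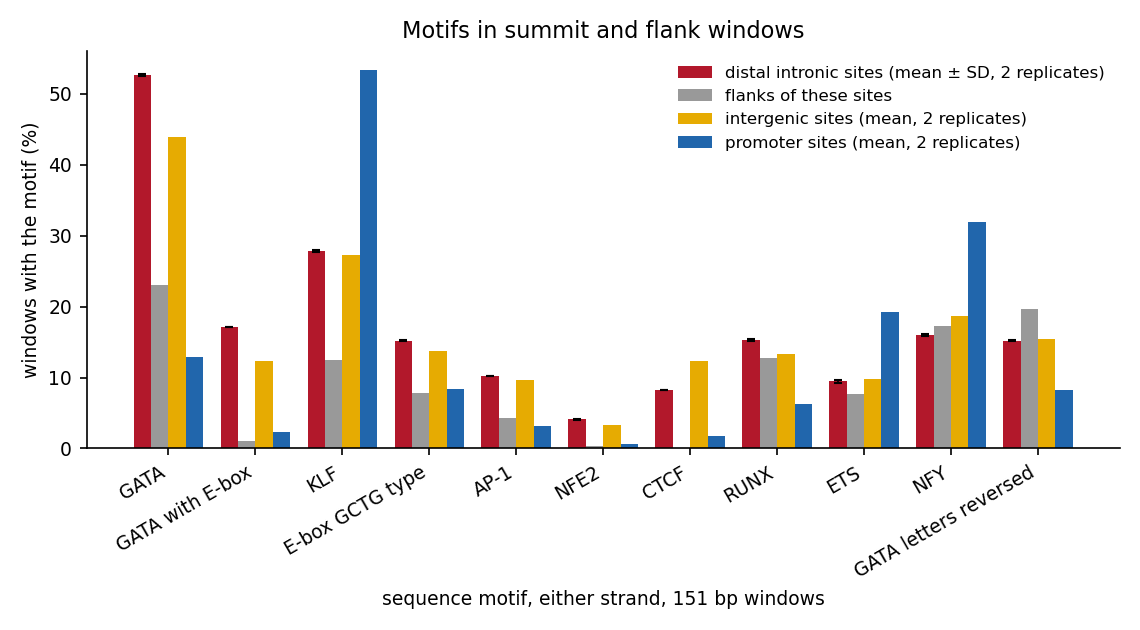
Share of summit windows in percent that hold each letter pattern on either strand: distal intronic sites (red, mean ± SD of 2 replicates), their flanks (grey), and the same windows of intergenic (yellow) and promoter sites (blue). GATA patterns and NFE2 are highest in distal intronic sites, CTCF in intergenic sites, and KLF, ETS and NFY in promoters.

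A search with no prior pattern gave the same families. Of all 7-letter words, counted with their reverse complement, the 10 whose share of sites most exceeded that of flanks were led by AGATAAG, in 14.9% of sites in each replicate against 1.76% of flanks. GATA letters were part of 6 of the 10, and CACACCC, part of the KLF family of letters, ranked second with 12.9% in replicate 1 and 13.0% in replicate 2 against 3.24% of flanks. CCACACC followed the same pattern with 11.5% and 11.8% against 3.08%. AGAGGGC and CCAGCAG, both of which fit stretches of the CTCF consensus, lay in 11.8% and 11.6% of sites in replicate 1, against 3.73% and 4.04% of flanks.

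Motif content was also set against the strength of a site. Among the 20% of sites with the lowest enrichment, a GATA motif lay in 51.7% ± 0.518 and the composite in 13.3% ± 0.829 (SD, n = 2 replicates). Among the 20% with the highest, the values were 57.8% ± 0.829 and 22.1% ± 0.207 (SD, n = 2). In the 3 groups between, from weaker to stronger, the GATA share was 49.0%, 51.0% and 54.1% and the composite share 14.9%, 16.1% and 19%, so the GATA share was lowest in the second group and the composite share was higher in each stronger group. The replicate values draw on the same sites, so their SDs do not cover counting error. By Wilson intervals in replicate 1, the weakest and strongest groups overlapped for GATA (48.3 to 55.8 and 53.4 to 60.8). For the composite they did not (11.5 to 16.7 and 19.3 to 25.6). CTCF letters were most common in the groups between, at up to 11%, and least common in the strongest group, at 4.91% ± 0.726 (SD, n = 2).

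The most enriched distal intronic sites were a mixed set. Of the 15 sites of highest mean percentile, taking 1 per host, 3 held a GATA motif, those in Bmx, Lgmn and Prcp, although 57.3% (49.8 to 64.5) of the 171 sites in the top 5% by mean percentile did. The measures of sequence copies, repeats and CpG below were chosen after these sites had been seen. The highest, in intron 2 of Gnb1l at chr16:18533134-18533394, had an enrichment of 24.9 in replicate 1 and 23.3 in replicate 2. It was followed by a site in AC115970.1 with 23.3 and 23.5 and one in Cldn34d with 23.1 and 22.5. In the AC115970.1 window, 87 of 121 words of 31 bases were also present in the reference mitochondrial genome. Words of the Gnb1l window occurred at a median of 2 places in the assembled chromosomes and those of the Wdr70 window at 3.

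Several of these windows were repetitive or rich in CpG. In the windows of Mnd1, Spice1 and Wdr70, 67.9%, 65.0% and 96.4% of 12-base words occurred more than once within the window itself. The windows of Fgfr2, Vegfd, Mrps27, Gm16675, Ckap5 and 1700063D05Rik held 10 to 12 CpG each. Across the 171 sites of the top 5%, 5.26% (2.79 to 9.70) had words found at 2 or more places, against 1.64% (1.25 to 2.14) of the other 3237. At least 10 CpG were found in 5.85% (3.21 to 10.4) of the 171 and 2.32% (1.85 to 2.89) of the others. The part of sequence copies in these enrichments was not tested.

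Genes with open promoters hosted most of the distal intronic sites. At least 1 protein-coding gene body held 3108 of the sites, 91.2%, and 290 lay in long noncoding genes alone. In all, 1977 of 21755 protein-coding genes, 9.09%, hosted a site, and 1331 of these hosted a single one. An open promoter means here a shared site whose strongest replicate 1 summit lay within 1 kb of any of the gene's start sites. Weaker summits and the edges of sites did not count. Such a promoter was present in 1437 of the 1977 hosts (72.7%, 70.7 to 74.6) and in 41.3% of all protein-coding genes. Sites numbered 8.02 per Mb of eligible intron in genes with an open promoter and 1.37 per Mb in genes without one. The difference was present within length classes too. Among the fifth of genes with the longest eligible introns, 37.1% (34.6 to 39.5) of those with an open promoter hosted a site and 10.6% (9.40 to 11.9) of those without.

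The sites were uneven along the genome. Chromosome 11 held 6.22 sites per Mb of eligible intron and chromosome X 1.09, against 3.37 over all chromosomes studied. The cells came from males, which carry a single X, and the part of copy number in the X value was not tested. Within 5 kb of 812 sites (23.8%, 22.4 to 25.3) lay another distal intronic site.

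Among the hosts with most sites, 2 had unusually long gene models. Gm20388, a predicted gene model of 4435 kb on chromosome 8, contained 68 sites, of which 25 lay in no other gene. It spans Zfpm1, with 7 of its sites, and Gse1, which ranked second among all hosts with 16 sites in a body of 353 kb. Fgfr2, which ranked next, encodes a fibroblast growth factor receptor and had 13 sites in a model of 2961 kb, of which 7 lay within Fam53b and 2 in no other gene. Among shorter genes, St3gal1, a sialyltransferase, had 8 sites or 12.5 per 100 kb of eligible intron, and Ccnd3, the cyclin that sets the number of terminal divisions of erythroblasts, had 8 sites or 9.51 per 100 kb. Mboat2 had 10 sites, Fig4, Pitpnc1 and Sox6 had 9 each, Atxn7l1 and Mta3 had 8, and Bcas3, Camta1, Dpf3 and Fam53b had 7. In Pitpnc1 all 9 sites and in Ccnd3 7 of 8 lay in the first intron.

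Erythroid genes were frequent hosts. Of 134 genes in 5 erythroid lists, 72 hosted a site (53.7%, 45.3 to 62.0), against 9.09% of all protein-coding genes. They held 35.1 sites per Mb of eligible intron against 3.66. Most list genes had an open promoter, so genes with an open promoter are the closer baseline. Among all protein-coding genes with one, 1437 of 8977 hosted a site, at 8.02 sites per Mb. The gene lists were chosen with earlier results of these data known. Among 127 genes in 7 lists of other cell types, 9 hosted a site (7.09%, 3.77 to 12.9), with 1.29 sites per Mb, and 12 of the 127 had an open promoter against 118 of the 134. Of 26 housekeeping genes, all 26 had an open promoter and 1, Gusb, hosted a site. These genes offered little room, with a median of 4.54 kb of eligible intron against 14.5 kb in the erythroid lists, and 6 had none. Their density, 4.12 sites per Mb, rests on that 1 site, against 8.02 in genes with an open promoter and 3.66 in all protein-coding genes. By list, hosts were 3 of 20 megakaryocyte genes (Vwf, Selp and Tubb1), 2 of 16 stem and progenitor genes (Prdm16 and Msi2), 2 of 20 neuron genes (Syt1 and Dlg4), 1 of 20 granulocyte and monocyte genes (Spi1) and 1 of 15 B cell genes (Blnk). The T and NK cell list and the hepatocyte list had no host among 18 genes each, with a Wilson upper bound of 17.6%. The 167 sites in erythroid list genes were less enriched than distal intronic sites in general, with medians of 5.61 and 5.63 in replicates 1 and 2 against 7.0 and 7.12, although their median −log10 p was higher, at 38.7 and 40.5 against 33.3 and 35.5. A GATA motif lay in 67.7% of them (60.2 to 74.3) at the replicate 1 summit and 68.9% at the replicate 2 summit, and 56.3% lay in a first intron.

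**Figure D5:**
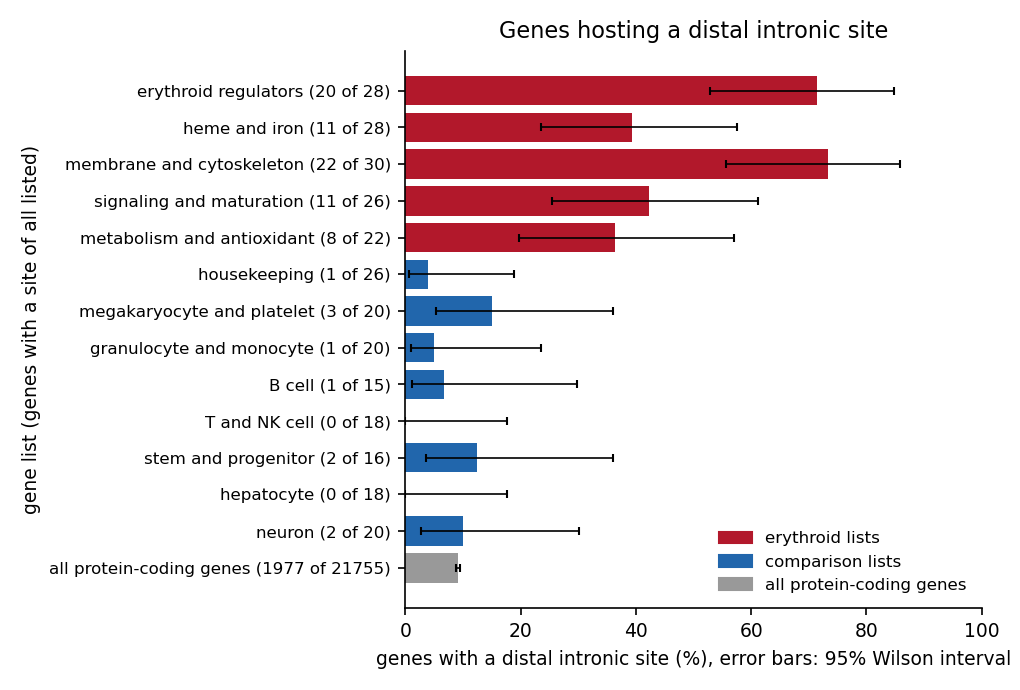
Share of genes in percent, with 95% Wilson intervals, that host at least 1 distal intronic site, for 5 erythroid lists (red), 8 comparison lists (blue) and all protein-coding genes (grey). Each erythroid list lies above the 9.09% of all genes, by its whole interval, and the comparison lists lie between 0 and 15%.

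Regulators of the erythroid program hosted 57 sites in 20 of 28 genes. Sox6, a repressor of embryonic globin genes, had 9 sites with enrichments between 5.61 and 10.9 in replicate 1 and between 5.99 and 11.2 in replicate 2. Its strongest site lay in intron 2, 53.1 kb from the nearest start site, and held 2 GATA motifs. Runx1, a factor of blood stem cells and megakaryocytes, had 5 sites, and the most enriched, at 9.41 and 9.98, held a composite of E-box and GATA letters. Zfpm1 encodes FOG1, the cofactor of GATA1, and had 7 sites with enrichments of 3.24 to 6.95 in replicate 1 and 3.36 to 7.32 in replicate 2. Of these 7, 6 held a GATA motif, and the site at chr8:122309100-122309863 in intron 3 held 4. Gata1 itself had 1 site, at 9.20 and 9.62, with a GATA motif, KLF letters and the E-box CAGCTG in its summit window. Bach1, a repressor regulated by heme, had its strongest site at 11.3 and 10, and Ikzf1, a lymphoid and erythroid zinc finger factor, at 9.49 and 10.4, neither with a GATA motif.

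Other regulators had few or no sites. Myb, a factor of immature progenitors, had 1 site at 5.42 and 5.38, and Bcl11a, a repressor of fetal globin genes in humans, had 2 sites, at 5.72 and 4.87 and at 5.66 and 6.26. Neither Myb nor Bcl11a had an open promoter or a GATA motif in a replicate 1 summit window, though 1 Bcl11a site had a motif by its replicate 2 summit. The 8 regulators with no site included Tal1, Gata2, Klf1, Ldb1, Lmo2 and Nfe2. Their eligible intron lengths ran between 1.26 kb in Klf1 and 17.7 kb in Lmo2, against a median of 17.3 kb over the regulator list and 10.5 kb over all protein-coding genes. Some regulators with as little sequence did host a site, among them Mafg with 0.758 kb and E2f4 with 3.59 kb, both chosen after their values were seen.

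Membrane and cytoskeleton genes, which build the shell of the red cell, hosted 53 sites in 22 of 30 genes, the densest of the 5 lists at 45.4 per Mb of eligible intron. A GATA motif lay in 40 of the 53, 75.5% (62.4 to 85.1). Xk, a membrane protein of the Kell complex, had the most enriched site of the list, at 14.1 in replicate 1 and 14.5 in replicate 2, with 2 GATA motifs. Epb41, which encodes protein 4.1, had 5 sites between 4.29 and 7.46 in replicate 1 and between 4.22 and 8.55 in replicate 2, each with 1 GATA motif. Ank1, the ankyrin that ties the skeleton to the membrane, had 3 sites, at 5.21, 3.61 and 7.97 in replicate 1 and 5.27, 3.66 and 8.10 in replicate 2. Add1, an adducin, had a site at 9.38 and 9.75 with a GATA motif, and Slc14a1, a urea transporter, one at 9.19 and 9.25 with none. Among the 8 genes with no site were Slc4a1, the anion exchanger band 3, Epb42, Ermap, Icam4, Rhag and Slc29a1, each with an open promoter, and Icam4 had no eligible intron sequence.

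Heme and iron genes hosted 15 sites in 11 of 28 genes, and 5 of the 17 without a site had no eligible intron sequence at all. Alas2, which overlaps Apex2 in the annotation, encodes the erythroid form of the enzyme that starts heme synthesis and had 2 sites. That in intron 8 had an enrichment of 12.9 in replicate 1 and 12.7 in replicate 2, and that in intron 1 had 7.78 and 7.90. Both held 2 GATA motifs and a KLF pattern, while no shared site had its strongest summit within 1 kb of an Alas2 start site. Slc11a2, an iron transporter, had a site at 10.6 and 11 with no GATA motif. Steap3, an endosomal iron reductase, had 2 sites, the stronger at 7.78 and 8.52 with 2 GATA motifs at the replicate 1 summit. Slc25a37, the mitochondrial iron importer mitoferrin, had 2 sites in its first intron, at 4.91 and 4.74 in replicate 1 and 4.82 and 4.81 in replicate 2. Genes with no site included Abcb6, Aco1, Cpox and Flvcr1.

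Signaling and maturation genes hosted 29 sites in 11 of 26 genes. Nprl3 is best known here as the host of upstream enhancers of the neighbouring alpha-globin genes, and its 2 sites had enrichments of 6.28 and 4.06 in replicate 1 and 6.15 and 4.32 in replicate 2. Both held GATA motifs, and the stronger, in intron 6 at chr11:32245050-32246065, held a composite. Other open intervals in the Nprl3 body did not enter, among them 2 whose summits lay within 1 kb of a transcript start annotated inside the gene. Xpo7, a nuclear export factor, had a site at 9.65 and 9.70, and the strongest of the 8 sites of Ccnd3 had 9.56 and 8.19 with 2 GATA motifs. Kit, the receptor of stem cell factor, had no site in 64.6 kb of eligible intron and no open promoter. Alox15, Bnip3l, Car1, Cdkn1b and Cish had no site either.

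Metabolism and antioxidant genes hosted 13 sites in 8 of 22 genes, and 7 of the 13 held a GATA motif. G6pdx, the enzyme that feeds the pentose phosphate pathway, had 1 site, shared with the overlapping gene Ikbkg, at 8.90 in replicate 1 and 7.92 in replicate 2. Bpgm, which makes the ligand that lowers the oxygen affinity of hemoglobin, had 2 sites. The stronger, in its first intron, was at 7.97 and 8.53 with a GATA motif. Tkt, a transketolase, had 2 sites, the stronger at 7.35 and 7.12 with NFE2 letters and no GATA motif. Aldoa, Cyb5r3, Gpi1, Gpx1 and Gpx4 had no site.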

How the data were processed

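ATAC-seq peak lists of the 2 replicates were used as deposited. Column 7 holds the enrichment, a fold over background, and column 8 the −log10 p of each summit, both computed by the authors' peak caller before deposit. The lists are on mm10, per the labels, and aligner and peak caller are not named in those sources. Lists thresholded by the authors on reproducibility (IDR) were the main input. The members, motifs and gene lists were chosen with earlier results of these data known. Summits were placed against GENCODE M21, and 17 letter patterns were searched on both strands in summit windows of GRCm38.p6, in flanks 1000 bp to each side clear of thresholded intervals, and in every 20th position of a 1000 bp grid over eligible intron sequence clear of less strict intervals. Eligible means over 1 kb from start sites, outside exons and in a gene body. The genes and sites named were the 15 hosts with most sites, the 15 sites of highest mean percentile with 1 per host, the 3 such sites of each erythroid list, and those of 15 blood loci. Up to 5 genes with no site are named per list. Python 3.11.15, numpy 2.4.6, pandas 2.3.3, scipy 1.17.1, pysam 0.24.0 and samtools 1.23.1 were used, and the scripts were tested on simulated data. With 1 group of 2 samples no test between conditions was made.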

Additional observations from a re-analysis of the deposited data

How the results depend on the processing

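The main values were 3408 sites, a GATA motif in 52.8%, a first intron in 33.4%, 1977 protein-coding hosts and 72 erythroid list hosts. Over 23 combinations of result and setting, values stayed within 1.5 times for counts or within 1 SD of the replicates for shares, and over 25 they did not. The SDs were 0.263 percentage points for the GATA share and 0.0758 for the first intron share. They were computed from the setting of replicate 2 intervals, which therefore had to fall outside them. With SDs this small, a first intron share of 33.3% against 33.4% also counted as outside, so the 25 includes very small changes. Requiring over 5 kb from a start site left 1931 sites, 1135 hosts and 34 erythroid hosts, and the less strict lists gave 7627 sites and 3742 hosts. The GATA share was 53.2% with overlap of at least 50% of each interval, 54.1% beyond 2 kb, 55.3% beyond 5 kb, 52.4% with protein-coding genes only, 52.4% for replicate 2 intervals and 43.8% in the less strict lists. It was 46.1% with 50 bases to each side of the summit and 63.6% with 150, where flanks held 16.3% and 39.8%. Leaving out either replicate gave 49.0 to 50.5%. For the same list settings the first intron share was 33.3%, 30.8%, 28.7%, 31.9%, 33.5% and 31.7%, and 35.8% by the longest transcript. Leaving out either replicate gave 32.4 to 33.2%. Without gene models over 2500 kb, a setting chosen after seeing the data, it was 32.9%. The causes were not tested. No paired analysis was possible because the series holds 1 group. With unknown depth and 2 replicates that share a donor identifier, SDs describe these 2 libraries alone, and a site missing from a list may lie below its threshold.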
